A study of Rattus norvegicus with 23 samples.

Results

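The microRNAs (miRs) miR-204 and miR-211 were followed through small RNA libraries of rat muscle derived stem cells (MDSC). The members were all entries of the count tables named miR-204 or miR-211, whatever the arm of the hairpin, and these were 4 of 792 entries, namely rno-miR-204-5p, rno-miR-204-3p, rno-miR-211-5p and rno-miR-211-3p, written below without the species prefix. They were chosen by name, and as a pair selected on their raw reads and reads per column total in all 23 libraries, so that their levels and ratios are given as a description and without a test.

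The study set female MDSC of the pelvic floor against male MDSC of the limb, and asked what serum of obese rats or single lipids do to their miRs. Libraries came from 5 kinds of MDSC. ND-MDSC (2 libraries) were male cells labelled as non-diabetic, of an age and strain not given in the sources used here, kept without addition or with 5% serum of obese rats (OZ serum) for 4 days. LD-MDSC (1 library) were male cells of the late diabetes group, from Zucker fatty (ZF) rats of 32 weeks, kept without addition. ED-MDSC (6 libraries) were male cells of the early diabetes group, from ZF rats of 12 weeks, kept without addition or for 4 days with 5% OZ serum, with 5% serum of non-obese rats (LZ serum), with cholesterol carried by cyclodextrin, or with cyclodextrin or albumin alone. ZF4-SC (11 libraries) were female cells of the levator ani of ZF rats of 12 weeks, kept with 5% OZ or LZ serum, palmitate at 0.5 or 1 mM, cholesterol at 50 or 100 mg/dl, the carriers alone, or nothing. ZL4-SC (3 libraries) were female cells of lean rats of the same age and muscle, kept with 5% OZ or LZ serum or nothing. Sera for the female cells came from female rats and sera for ED-MDSC from male rats, so that OZ or LZ serum is not one serum across the sexes. The study's text gives the male donors as 32 weeks old and states several different ages for the female donors. The donors for ND-MDSC are not given in the sources used here. The ZF rats of the ED, LD and ZF4 groups all carry the fatty mutation of the leptin receptor. Female cells had been sorted as Sca1-/CD34+/integrin-α7+ cells. For its male cells the study's text names pre-plating and selection for Sca1, giving Sca1+/CD34+ cells. It does not describe the isolation of ND-MDSC. The labels place the male cells in the quadriceps and the study's text in the gastrocnemius. Each kind of MDSC was, as far as the sources tell, a single cell preparation, so that the libraries are treatments of the same cells and not separate animals.

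Both miRs are known as a pair that acts on the choice of lineage in mesenchymal progenitors. In work on mouse and human cells they bind the message of Runx2, the transcription factor that drives bone formation, and so favour the adipocyte over the osteoblast. The hairpin of miR-204 lies inside Trpm3 and that of miR-211 inside Trpm1, genes of cation channels, and Trpm1 with its miR is known as a target of the pigment cell factor MITF.

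The mature miRs are shown because their likeness bears on every value of the pair. The sequences are from RefSeq (build GRCr8), with the seed in capitals, bases 2 to 8 counted from the 5′ end.
miR-204-5p: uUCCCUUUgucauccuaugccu
miR-211-5p: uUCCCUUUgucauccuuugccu
miR-204-3p: gCUGGGAAggcaaagggacguu
miR-211-3p: gGCAAGGAcagcaaaggggg
The 5p arms share their seed and 21 of their 22 bases, and the only difference between them is A17U, where the position is counted from the 5′ end and miR-204-5p is given first. Among 724 mature rat miRs in the same table, that seed was found in these 2 only. A read that ends before the differing base cannot be told apart between them, and how the counting treated such reads is not given in the sources used here. The 3p arms have different seeds and different lengths of 22 and 20 bases.

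The hairpins are shown with both mature arms in capitals, since the arm that was read is one of the results.
Mir204: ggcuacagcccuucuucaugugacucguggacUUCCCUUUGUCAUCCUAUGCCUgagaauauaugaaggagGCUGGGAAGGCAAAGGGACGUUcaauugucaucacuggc
Mir211: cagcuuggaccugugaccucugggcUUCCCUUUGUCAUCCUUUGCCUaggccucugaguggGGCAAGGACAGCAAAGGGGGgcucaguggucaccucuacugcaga
Mir204 spans chr1:229743461-229743570 on the plus strand, within the span of Trpm3 at chr1:229099741-229984172. Mir211 spans chr1:127189328-127189433 on the plus strand, within the span of Trpm1 at chr1:127130686-127247219. Both hairpins are thus on chromosome 1, in different genes far from each other.

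Levels are given as reads per 1000000 miR reads of the library (RPM), with the exact Poisson 95% interval in brackets. The reads carry no molecular identifiers, so that all intervals cover counting error only. Depth was 6492161 to 13271580 reads in the 8 libraries of the serum run, 1701574 to 3840523 in the 7 of the male run and 104902 to 4783062 in the 8 of the lipid run, the library with 1 mM palmitate being the shallowest. A run here means the libraries of the same count table, and the names of the runs were given here. ND-MDSC were in the serum run with the female cells, and ED-MDSC and LD-MDSC were alone in the male run. Markers of striated muscle were scarce, with 0 to 11.2 RPM summed over 4 miRs. miR-133a-3p and miR-133b-3p were at 0 in all 23 libraries, and miR-1-3p had 9 reads in 4 libraries. miR-206-3p was read in 18 libraries, with 242 reads and a median of 3.02 RPM. In bulk libraries such as these, fewer cells with a miR and less of the miR in each cell cannot be told apart.

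Only 2 conditions had a second library, and these show how far the members differ between libraries of like cells. In ZF4-SC without addition, miR-204-5p had 29 reads in the lipid run (6.60 RPM [4.42 to 9.48]) and 7 reads in the serum run (1.08 RPM [0.434 to 2.22]), a ratio of 6.12 (95% interval 2.62 to 16.6). For miR-211-5p the same libraries had 2 and 8 reads, a ratio of 0.369 (0.0382 to 1.85). Of 274 entries that averaged 10 reads or more in that pair, 40.1% differed at least 2-fold. For cyclodextrin in ZF4-SC the deeper library had 25 reads of miR-204-5p and the shallower had 0, whose limit of 3 reads is 3.73 RPM. A difference of 6-fold in miR-204-5p was thus reached between runs with no treatment at all, and ratios across runs are to be read against it.

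miR-204-5p was a miR of ND-MDSC. In these cells it had 742 reads with OZ serum (55.9 RPM [52.0 to 60.1]) and 2040 reads without addition (268.5 RPM [257.0 to 280.4]), where it ranked as entry 108 of 403 detected and entry 70 of 394 detected. The 2 libraries held 2782 of the 3071 reads of miR-204-5p in the series, or 90.6%. In the other 21 libraries it ranged between 0 and 20.6 RPM with a median of 1.99, and the 6 other libraries of the same run had only 2 to 19 reads each, or 0.284 to 2.31 RPM. Both ND-MDSC libraries were thus above the highest of the others.

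ED-MDSC came next. Their 4 libraries without rat serum had 50 reads of miR-204-5p without addition (13.0 RPM), 36 with albumin (18.4 RPM), 18 with cyclodextrin (10.6 RPM) and 43 with cholesterol (20.6 RPM). With rat serum the same cells had 5 reads with OZ serum (1.99 RPM [0.646 to 4.65]) and 1 read with LZ serum (0.300 RPM [0.00759 to 1.67]). LD-MDSC had 3 reads (1.63 RPM [0.335 to 4.75]). The ED-MDSC libraries with serum and the LD-MDSC library lay in the range of the female cells, whose 14 libraries had 0 to 10.03 RPM with a median of 1.46 and 3 libraries at 0.

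Among cells without addition, the order of miR-204-5p was ND-MDSC, ED-MDSC, ZF4-SC of the lipid run, LD-MDSC, ZF4-SC of the serum run and ZL4-SC (3 reads, 0.390 RPM). The intervals of the first 3 did not overlap, whereas LD-MDSC, ZF4-SC of the serum run and ZL4-SC overlapped one another and could not be placed in order, and LD-MDSC also overlapped ZF4-SC of the lipid run.

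**Figure D1:**
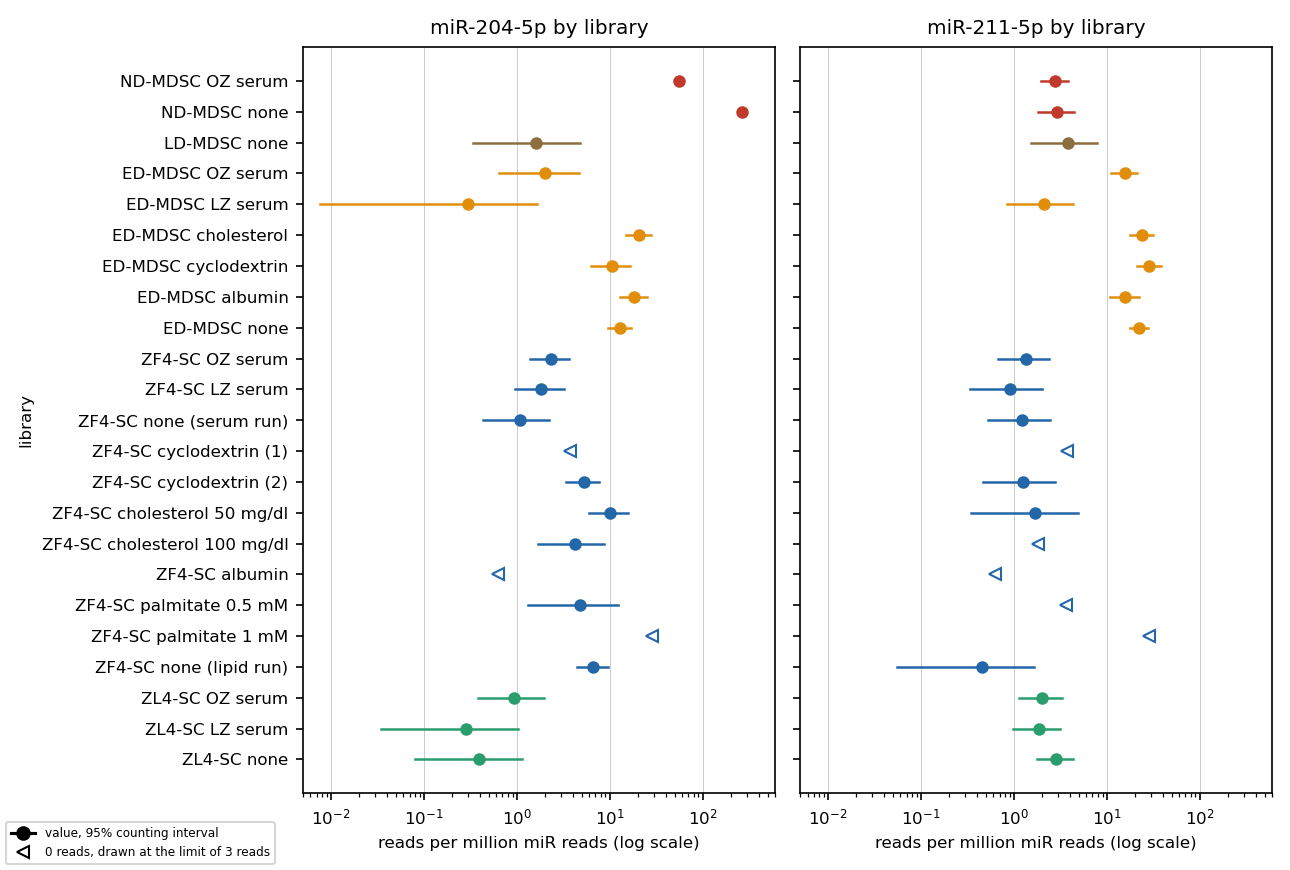
Levels of miR-204-5p (left) and miR-211-5p (right) in each of the 23 libraries, in RPM on a log axis, with 95% counting intervals, and open triangles at the limit of 3 reads where no read was found. The 2 ND-MDSC libraries stand at 55.9 and 268.5 RPM for miR-204-5p, above all others, but at 2.79 and 2.90 RPM for miR-211-5p, where the ED-MDSC libraries reach up to 28.8 RPM.

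miR-211-5p was, in contrast, a miR of ED-MDSC. It had 86 reads without addition (22.4 RPM [17.9 to 27.7]), 31 with albumin (15.8 RPM), 49 with cyclodextrin (28.8 RPM, the highest of the series) and 50 with cholesterol (24.0 RPM). OZ serum left 39 reads (15.5 RPM) and LZ serum 7 reads (2.10 RPM). The LZ serum library thus stood apart from the 5 others of ED-MDSC, which ranged between 15.5 and 28.8 RPM.

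All other cells had little of miR-211-5p. LD-MDSC had 7 reads (3.79 RPM), ND-MDSC had 37 reads with OZ serum (2.79 RPM) and 22 without addition (2.90 RPM), and ZL4-SC had 15 with OZ serum, 13 with LZ serum and 22 without addition (2.02, 1.85 and 2.86 RPM). In ZF4-SC the serum run had 11 reads with OZ serum, 6 with LZ serum and 8 without addition, or 0.916 to 1.34 RPM. Over the 14 female libraries the level was 0 to 2.86 RPM with a median of 1.07 and 5 libraries at 0. The order in cells without addition was ED-MDSC, LD-MDSC, ND-MDSC, ZL4-SC and then ZF4-SC, and the intervals of LD-MDSC, ND-MDSC, ZL4-SC and ZF4-SC of the serum run overlapped, so that only ED-MDSC was placed apart. The member that was high thus differed between the male cells, with miR-204-5p high in ND-MDSC and miR-211-5p in ED-MDSC.

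The reads came almost wholly from the 5p arm. For miR-204 it held 3071 reads and the 3p arm 6, so that 99.8% were of the 5p arm (Wilson 95% interval 99.6 to 99.9%). For miR-211 the numbers were 414 and 6, or 98.6% (96.9 to 99.3%). miR-204-3p was read in 3 libraries with 2 reads each, the 2 of ND-MDSC and ED-MDSC with albumin. miR-211-3p was read in ED-MDSC without addition (2 reads) and with cyclodextrin (4 reads). Neither 3p arm had a read in the 14 female libraries, and the few reads of each 3p arm were in the male cells, where its own 5p arm was also high. At this depth the 3p arms give no ratio but that of miR-211-3p for cyclodextrin against no addition in ED-MDSC. It was 4.51 on these few reads, with an interval of 0.647 to 49.9 that includes 1.

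The balance of the pair was expressed as the share of miR-211-5p among the reads of both 5p arms, which are of one length. It was 4.75% in ND-MDSC with OZ serum (Wilson interval 3.47 to 6.48%, 779 reads) and 1.07% without addition (0.706 to 1.61%, 2062 reads). In ED-MDSC it was 88.6% with OZ serum (76.0 to 95.1%, 44 reads) and 63.2% without addition (54.9 to 70.9%, 136 reads). ED-MDSC with albumin were at 46.3%, with cyclodextrin at 73.1% and with cholesterol at 53.8%. The share therefore differed even among the ED-MDSC libraries without serum. With 1 library of each, treatment and difference between libraries cannot be told apart.

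The female cells differed among themselves. ZL4-SC were at 68.2% with OZ serum, 86.7% with LZ serum and 88.0% without addition (70.0 to 95.8%, 25 reads). ZF4-SC of the serum run were at 36.7% with OZ serum, 33.3% with LZ serum and 53.3% without addition (15 reads). In the lipid run ZF4-SC without addition were at 6.45% (1.79 to 20.7%, 31 reads). The 2 untreated ZF4-SC libraries thus lay as far apart as some kinds of cells. Of the 17 libraries with at least 10 reads of the pair, 9 were above 50% and 8 below.

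**Figure D2:**
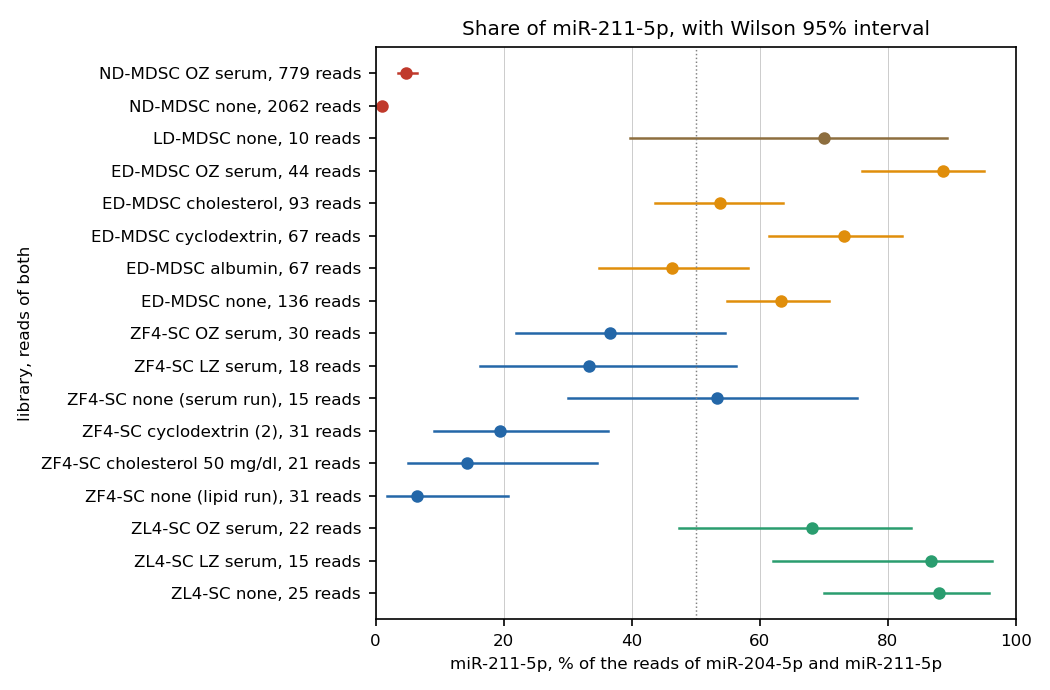
Share of miR-211-5p among the reads of miR-204-5p and miR-211-5p, in percent, with Wilson 95% intervals, for the 17 libraries with at least 10 reads of the pair, whose number stands beside each name. ND-MDSC lie at 4.75 and 1.07%, ED-MDSC between 46.3 and 88.6%, and ZL4-SC between 68.2 and 88.0%.

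Serum of obese rats was first compared with no addition in ND-MDSC, the only cells where a member was abundant. miR-204-5p had 55.9 RPM with OZ serum and 268.5 RPM without, a ratio of 0.208 (exact 95% interval 0.191 to 0.227), or 4.80-fold lower with OZ serum. miR-211-5p had 2.79 RPM with OZ serum and 2.90 RPM without, a ratio of 0.963 (0.553 to 1.71). miR-204-5p was thus lower while its near copy in sequence stayed within counting error. In this pair 15.4% of 169 entries averaging 100 reads or more, and 22.1% of 281 averaging 10 or more, were past 2-fold in either direction, and the median ratio of the latter set was 0.886. The summed blood markers were 20.8 RPM with OZ serum and 22.8 RPM without, and the neural markers 3.62 and 6.32 RPM. Striated muscle markers had 3.24 RPM (43 reads) with OZ serum and 0.132 RPM (1 read) without. Epithelial and endocrine markers had 1.66 and 4.61 RPM in that order, and endothelial markers 75.35 and 71.87 RPM. The part of these differences in the ratio was not tested. There was 1 library of each condition, so that the ratio has no check by a replicate.

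In ED-MDSC both sera went with less of the pair. With OZ serum, miR-204-5p had 5 reads against 50 without addition, a ratio of 0.153 (0.0476 to 0.381), and miR-211-5p had 39 against 86, a ratio of 0.693 (0.462 to 1.02). With LZ serum, miR-204-5p had 1 read against the same 50, a ratio of 0.0230 (0.000572 to 0.134), and miR-211-5p had 7 against 86, a ratio of 0.0937 (0.0366 to 0.202). By column totals miR-204-5p was past 2-fold lower with either serum, and miR-211-5p with LZ serum. With TMM sizes, library sizes corrected by edgeR so that the typical entry does not differ, miR-211-5p was also past 2-fold with OZ serum, at 0.477 (0.318 to 0.703). With the size factors of DESeq2, which serve the same end, it was at 0.516 (0.344 to 0.762). Many entries moved in these pairs, with 53.8% past 2-fold for OZ serum and 51.2% for LZ serum among those averaging 10 reads or more. By column totals 38.5% were higher and 15.3% lower with OZ serum, and 34.7% and 16.5% with LZ serum, and the median ratios were 1.55 and 1.47. With TMM sizes 21.2% were higher and 20.5% lower with OZ serum, 15.8% and 24.7% with LZ serum, so that the excess of higher entries depends on the scaling. miR-204-5p was then at 0.105 with OZ serum and 0.0149 with LZ serum. The pairs share the library without addition.

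The sera were also compared with each other in ED-MDSC. miR-211-5p was 7.40-fold higher with OZ serum than with LZ serum (3.27 to 19.6), at 39 and 7 reads. miR-204-5p had 5 and 1 reads, a ratio of 6.64 whose interval of 0.743 to 314.0 includes no difference. Here 19.2% of entries were past 2-fold. The serum libraries of ED-MDSC differed from the others of these cells in more than the members. The summed blood markers, mostly the red cell miRs miR-451-5p and miR-486, had 9512 RPM with OZ serum, 3479 RPM with LZ serum and 459.6 RPM without addition, with 5 of 5 markers read in each serum library and 3 of 5 without. The neural markers had 70.9, 130.1 and 5.99 RPM in the same order, with 1 of the 2 at 0 in each. The part of these differences in the result was not tested.

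Because reads may have been assigned to either member, the reads of both 5p arms were also summed, as copies of one seed. With OZ serum the sum was 0.216 of that without addition in ND-MDSC (0.199 to 0.235) and 0.495 in ED-MDSC (0.344 to 0.700). With LZ serum it was 0.0677 in ED-MDSC (0.0287 to 0.137), from 2.40 RPM with LZ serum and 35.4 RPM without addition. The 3 ED-MDSC libraries with a lipid or a carrier had 34.2 to 44.6 RPM, next to the 35.4 RPM without addition. By column totals the sum for OZ serum in ED-MDSC lay close to the 2-fold line, and for the 2 other pairs well below it.

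In the female cells the ratios with serum rested on few reads. In ZF4-SC, miR-204-5p had 19 reads with OZ serum, 12 with LZ serum and 7 without addition. The ratios were 2.14 for OZ serum (0.863 to 6.04) and 1.70 for LZ serum (0.617 to 5.09). For OZ serum 33.3% of entries were past 2-fold by column totals, 6.09% higher and 27.2% lower, with a median ratio of 0.687. With TMM sizes 14.7% were higher and 13.3% lower. Other scalings gave ratios of miR-204-5p of 2.61 to 3.23 for OZ serum, with intervals that exclude 1 (1.30 to 9.11 with TMM sizes). In ZL4-SC it had 7 reads with OZ serum, 2 with LZ serum and 3 without addition, and the ratio for OZ serum was 2.42 (0.552 to 14.5). With LZ serum ZL4-SC were at 0.284 RPM against 0.390 RPM without addition, both at or under the limit of 3 reads, and have no ratio. Only the pair of OZ serum in ZF4-SC averaged 10 reads or more, and its interval by column totals included 1. With the untreated library of the lipid run in place of that of the same run, the ZF4-SC ratios turned to 0.350 for OZ serum and 0.278 for LZ serum.

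miR-211-5p in female cells stayed nearer to 1. Its ratios with OZ serum were 1.09 in ZF4-SC (0.398 to 3.11) and 0.707 in ZL4-SC (0.341 to 1.43), and with LZ serum 0.743 in ZF4-SC and 0.647 in ZL4-SC (0.299 to 1.34). By column totals none was past 2-fold, and the intervals included 1. With TMM sizes OZ serum in ZL4-SC was at 0.438 (0.212 to 0.884), past 2-fold. The intervals leave room for changes of more than 2-fold in ZF4-SC and for levels more than 2-fold lower in ZL4-SC. Changes of that size were therefore not excluded at this depth in either kind of cells.

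LD-MDSC were compared with ED-MDSC in the same run. Both members were lower in LD-MDSC. miR-204-5p had 3 reads in LD-MDSC and 50 in ED-MDSC, a ratio of 0.125 (0.0249 to 0.387). miR-211-5p had 7 and 86 reads, a ratio of 0.169 (0.0661 to 0.364). The sum of both was 5.42 RPM in LD-MDSC and 35.4 RPM in ED-MDSC, a ratio of 0.153 (0.0718 to 0.290). In this pair 41.1% of 258 entries were past 2-fold and the median ratio was 0.758. Without the 3 most abundant entries in the totals the ratios were 0.190 for miR-204-5p and 0.257 for miR-211-5p, and the median 1.15. The blood markers had 1481 RPM in LD-MDSC and 459.6 RPM in ED-MDSC, and their part in the result was not tested. Age, stage of diabetes and the cell preparation cannot be told apart here.

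Across the kinds of MDSC without addition, the members went in opposite directions between ND-MDSC and ED-MDSC. miR-204-5p was 20.6-fold higher in ND-MDSC (15.6 to 27.9), and miR-211-5p was at 0.129 of the ED-MDSC level (0.0771 to 0.209). With DESeq2 size factors these were 32.1 and 0.201. Among entries averaging 100 reads or more 38.8% were past 2-fold, and 42.3% among those averaging 10 or more. The blood markers had 22.8 RPM in ND-MDSC and 459.6 RPM in ED-MDSC, and their part in the result was not tested. These libraries were of different runs, so that run and cells cannot be told apart. The sum of the pair was 271.4 RPM in ND-MDSC and 35.4 RPM in ED-MDSC.

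The female cells were set against ND-MDSC within the serum run. In ZF4-SC miR-204-5p had 7 reads against 2040 in ND-MDSC, a ratio of 0.00402 (0.00161 to 0.00829), or 249.1-fold lower. With the untreated ZF4-SC library of the lipid run it was 40.7-fold lower. In ZL4-SC it had 3 reads, a ratio of 0.00145 (0.000299 to 0.00425), or 689.3-fold lower, and the ratio was 0.00277 without the 3 most abundant entries. The entries past 2-fold were 38.8% in the ZF4-SC pair at a mean of 100 reads or more and 46.1% at 10 or more, and 59.0% and 60.4% in the ZL4-SC pair. miR-211-5p was at 0.426 of ND-MDSC in ZF4-SC (0.164 to 0.992), or 0.627 (0.241 to 1.46) without the 3 most abundant entries, and at 0.986 in ZL4-SC (0.521 to 1.87). The female cells thus differed from ND-MDSC far more in miR-204-5p than in miR-211-5p. Sex, muscle and any difference in the method of isolation cannot be told apart in this.

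ZF4-SC and ZL4-SC without addition, in the same run, differed in the pair by amounts that depended on the scaling. miR-204-5p had 7 reads in ZF4-SC and 3 in ZL4-SC, a ratio of 2.77 (0.632 to 16.6), and miR-211-5p had 8 and 22 reads, a ratio of 0.431 (0.166 to 1.01). By column totals both intervals included 1. With TMM sizes miR-211-5p was at 0.207 (0.0798 to 0.483) and with DESeq2 size factors at 0.256 (0.0984 to 0.596), whereas miR-204-5p was at 1.33 with TMM sizes. The median of all entries was 1.67 by column totals and 0.803 with TMM sizes. By column totals 44.6% of entries were past 2-fold, 37.9% higher and 6.67% lower. With TMM sizes 13.7% were higher and 23.9% lower. How common a ratio as low as that of miR-211-5p was thus depended on the scaling.

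Lipids and their carriers were given to ED-MDSC and ZF4-SC. In ED-MDSC, cholesterol at a dose not given in the labels had 43 reads of miR-204-5p against 18 with cyclodextrin, a ratio of 1.951 (1.10 to 3.59), and 50 reads of miR-211-5p against 49, a ratio of 0.833 (0.551 to 1.26). Albumin against no addition gave 1.41 for miR-204-5p (0.893 to 2.21) and 0.706 for miR-211-5p (0.453 to 1.08). Cyclodextrin against no addition gave 0.813 and 1.29. None of these was past 2-fold.

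In ZF4-SC the lipid run gave few reads of either member. The 2 cyclodextrin libraries together had 25 reads of miR-204-5p, cholesterol at 50 mg/dl had 18 and cholesterol at 100 mg/dl had 7. Relative to cyclodextrin the ratio was 2.24 at 50 mg/dl (1.15 to 4.27) and 0.942 at 100 mg/dl (0.344 to 2.24), with 30.0% of entries past 2-fold at the lower dose. Against the deeper cyclodextrin library alone the ratio at 50 mg/dl was 1.91, short of 2-fold. The level did not follow the order of the doses. The blood markers were 10840 RPM at 50 mg/dl and 899.4 RPM at 100 mg/dl, against 5164 and 318.6 RPM with cyclodextrin. Most of each sum was miR-486, at 10620, 845.1, 4713 and 291.6 RPM in the same order. Their part in the ratio was not tested.

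Albumin and palmitate were at or near the limit of detection. ZF4-SC with albumin had 0 reads of miR-204-5p among a library whose limit of 3 reads is 0.627 RPM, against 29 reads and 6.60 RPM without addition, and were thus at least 10.5-fold lower. Against the untreated library of the serum run, with 7 reads, the bound was only 1.72-fold and not past 2-fold. In that pair of the lipid run 20.5% of entries were past 2-fold, and the blood markers were 364.8 RPM with albumin and 364.7 RPM without. Palmitate at 0.5 mM had 4 reads (4.83 RPM) against 0 with albumin, 7.71-fold above the limit of the albumin library, and the lower end of the exact interval of that ratio was 3.82. The blood markers were 45660 RPM with palmitate at 0.5 mM and 364.8 RPM with albumin. Of these sums miR-486 alone had 45400 and 354.0 RPM, so that they rest on 1 entry. Their part in the result was not tested. Palmitate at 1 mM had 0 reads of miR-204-5p with a limit of 28.6 RPM. The shallow library with 1 mM could therefore not show the level that was read at 0.5 mM. miR-211-5p had no read in any of these 3 libraries.

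**Figure D3:**
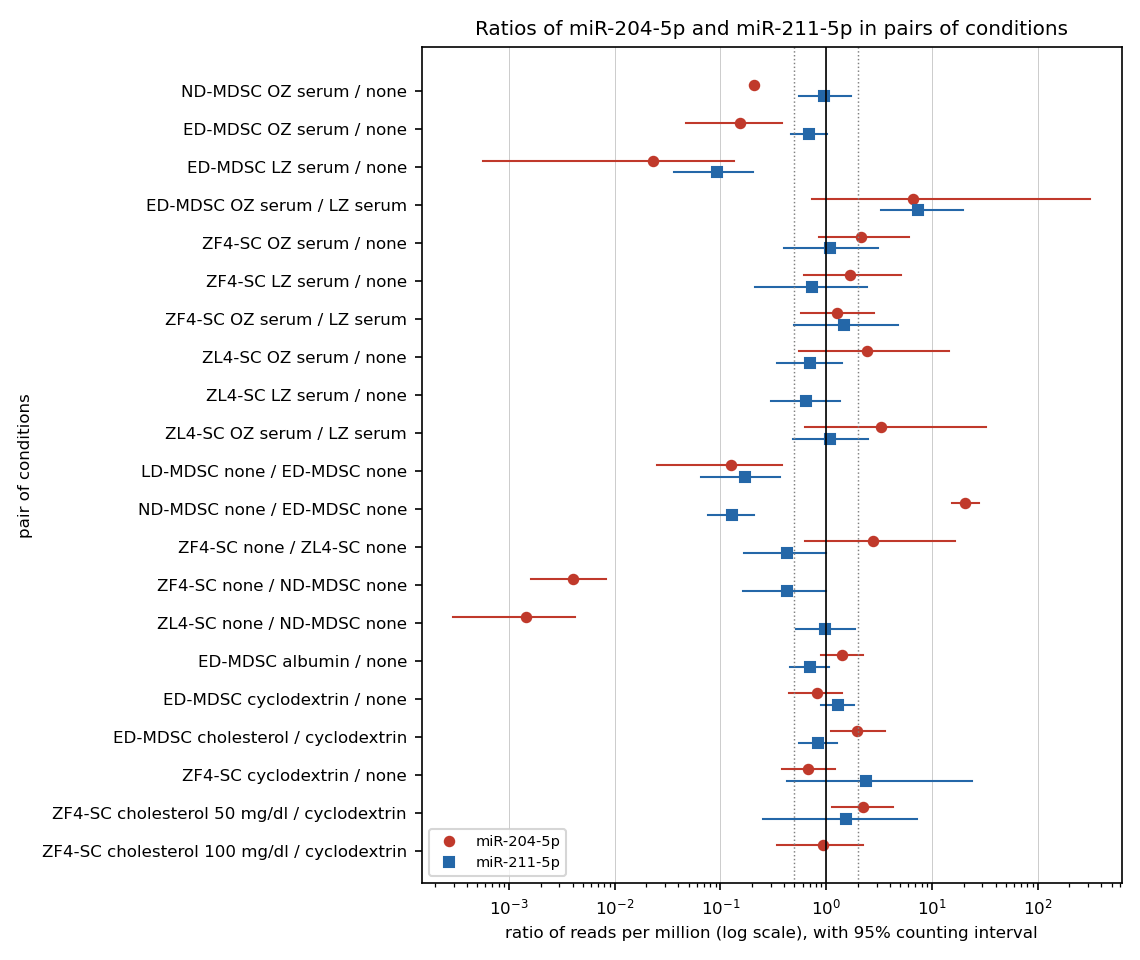
Ratio of RPM in pairs of conditions, the first named over the second, on a log axis with exact 95% counting intervals, for miR-204-5p (circles) and miR-211-5p (squares). Dotted lines mark 2-fold. With OZ serum miR-204-5p lies at 0.208 in ND-MDSC and 0.153 in ED-MDSC, while miR-211-5p lies at 0.963 and 0.693. Pairs with a member at 0 reads, or with both libraries at 3 reads or fewer, have no point.

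Counted over the 24 pairs by column totals, miR-204-5p averaged 10 reads or more in 16, and was past 2-fold in 10 of these, 3 higher and 7 lower. The interval excluded 1 in 9 of the 10, the exception being OZ serum in ZF4-SC. miR-211-5p had such a mean in 15 pairs and was past 2-fold in 6, 1 higher and 5 lower, with an interval that excluded 1 in 5 and the exception in ZF4-SC against ZL4-SC. In the pairs where a member was past 2-fold, 19.2% to 60.4% of all entries were. With TMM sizes miR-204-5p was again 3 times higher and 7 times lower, and miR-211-5p was past 2-fold in 1 pair higher and 7 lower. With the other untreated ZF4-SC library OZ serum in ZF4-SC changed its direction and the call for albumin was lost. Other pairs of miR-204-5p were then past 2-fold at a mean of 10 reads or more. These were LZ serum in ZF4-SC (0.278, 12 and 29 reads), ZF4-SC against ZL4-SC (16.9, 29 and 3 reads) and cyclodextrin in ZF4-SC (4.16, 25 and 7 reads). Several of these pairs share a library and are not separate observations. In several, the mean of 10 reads was reached through 1 side only. Examples for miR-204-5p are 0 and 29 reads for albumin in ZF4-SC, and 1 and 50 for LZ serum in ED-MDSC. A ratio past 2-fold is then nearly fixed by the minimum, so that the tally only describes these reads.

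The other miRs known to target Runx2 in mouse cells were taken as a list of 11. Several are scarce or absent in MDSC, with 0 reads of miR-133a-3p and 2 of miR-137-3p over all libraries. Those with enough reads in most pairs were 5, namely miR-23a-3p, miR-23b-3p, miR-30c-5p, miR-34c-5p and miR-217-5p. The counts that follow are by column totals. With OZ serum in ND-MDSC, 0 of the 5 were higher past 2-fold and 1 was lower, miR-23b-3p at a ratio of 0.451, and the median of the list was 0.711 beside 0.886 for all entries, of which 6.41% were higher and 15.7% lower. With TMM sizes 0 of the 5 were past 2-fold, and 10.3% of all entries were higher and 12.1% lower. With OZ serum in ED-MDSC, 3 were higher and 1 was lower, and the median was 2.06 beside 1.55, with 38.5% of all entries higher and 15.3% lower. With TMM sizes 1 was higher and 1 lower. miR-23b-3p had the highest ratio, 3.16, and miR-217-5p the lowest, 0.353, on 6 and 26 reads. miR-204-5p was past 2-fold lower in this pair under either scaling.

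With LZ serum in ED-MDSC 3 of the 5 were higher and 0 lower, with a median of 2.10 beside 1.47, where 34.7% of all entries were higher and 16.5% lower, and with TMM sizes 0 of the 5 were past 2-fold. In LD-MDSC against ED-MDSC none of the 5 was past 2-fold and the median was 0.992 beside 0.758, with 12.8% of all entries higher and 28.3% lower (26.4% and 15.9% without the 3 most abundant entries), where miR-204-5p was at 0.125 and miR-211-5p at 0.169. In ND-MDSC against ED-MDSC, 1 was higher (miR-23b-3p at 3.45) and 2 were lower (miR-34c-5p at 0.441 and miR-217-5p at 0.194), with a median of 0.878 beside 0.692. Of all entries 8.54% were higher and 33.8% lower in that pair, and 17.8% and 15.7% with DESeq2 size factors, where 1 of the 5 was higher and 1 lower. The ratios of both members in the LD-MDSC pair lay below that of every listed miR measured there.

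The list of 9 miRs known from adipocyte formation had 6 with enough reads in most pairs, miR-143-3p, miR-103-3p, miR-107-3p, miR-27a-3p, miR-27b-3p and miR-21-5p. miR-143-3p and miR-103-3p are known to favour fat cells and the miR-27 family to hold them back. With OZ serum in ND-MDSC 3 were lower past 2-fold, miR-143-3p at 0.425, miR-27a-3p at 0.463 and miR-27b-3p at 0.363, and none higher, beside 15.7% of all entries lower, with a median of 0.934 beside 0.886. With TMM sizes 2 were higher and 2 lower. In ED-MDSC with OZ serum 1 was higher, miR-27b-3p at 3.53, and none lower, beside 38.5% of all entries higher, with a median of 1.19 beside 1.55, whereas with TMM sizes 1 was higher and 1 lower. In ED-MDSC with LZ serum miR-27b-3p was at 3.60, and miR-107-3p at 0.311 and miR-21-5p at 0.399 were lower, with a median of 1.29 beside 1.47. Of all entries 34.7% were higher and 16.5% lower, and with TMM sizes 1 of the list was again higher and 2 lower. In LD-MDSC against ED-MDSC miR-143-3p was higher at 3.02, and miR-21-5p (0.321), miR-107-3p (0.330) and miR-103-3p (0.456) were lower, with a median of 0.618 beside 0.758. Of all entries 12.8% were higher and 28.3% lower in that pair. Without the 3 most abundant entries in the totals 2 of the list were higher and 1 lower, with a median of 0.938 beside 1.15. Of all entries 26.4% were then higher and 15.9% lower. miR-27b-3p was thus lower with OZ serum in ND-MDSC and higher in ED-MDSC, where miR-204-5p was lower in both.

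**Figure D4:**
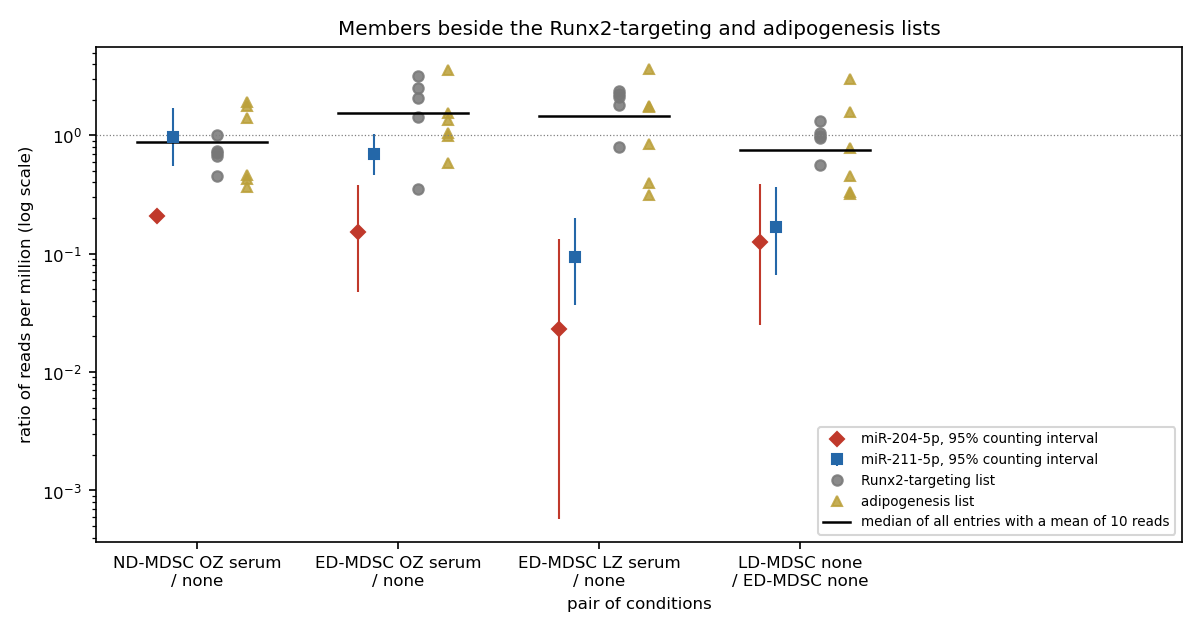
Ratio of RPM, on a log axis, of miR-204-5p (diamonds) and miR-211-5p (squares) with 95% counting intervals, beside the Runx2-targeting miRs (circles) and the adipogenesis miRs (triangles) that averaged 10 reads or more, in 4 pairs of male cells. Black bars are the median of all entries with that mean. In LD-MDSC against ED-MDSC the members at 0.125 and 0.169 lie below every circle and triangle, and with OZ serum in ED-MDSC miR-204-5p at 0.153 lies below them too.

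Likeness of pattern was measured as Pearson's r of log2(RPM + 1) across the 23 libraries, for entries averaging 100 reads or more, and has no p. The points share cells, runs and depth. Nearest to miR-204-5p was miR-146b-5p, a miR known from inflammation, with r = 0.82 over 23 libraries and 0.76 over the 21 without ND-MDSC. The 4 next were miR-100-5p (0.70), miR-452-5p (0.69), miR-322-5p (0.67) and miR-214-3p (0.65). miR-146b-5p had 51980 RPM in ND-MDSC with OZ serum and 53550 RPM without addition, and so did not share the lower level of miR-204-5p with serum in these cells. In ED-MDSC it had 2711 RPM with OZ serum and 2596 RPM with LZ serum, against 36580 RPM without addition, and LD-MDSC had 1802 RPM. The likeness thus lay in the difference between kinds of MDSC and in the serum libraries of ED-MDSC. Within the 14 female libraries r was only 0.34.

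For miR-211-5p the nearest were miR-101b-3p (r = 0.89), miR-21-5p (0.87), let-7i-5p (0.85), miR-365-3p (0.84) and miR-30e-5p (0.84). miR-101b-3p had 570.5 RPM in ED-MDSC without addition, 107.3 RPM in LD-MDSC, 191.2 RPM in ND-MDSC with OZ serum and 208.4 RPM without, and 42.4 to 156.3 RPM in female cells. It was thus highest in ED-MDSC, as was miR-211-5p. In ED-MDSC it had 406.9 RPM with OZ serum and 391.6 RPM with LZ serum, and so did not share the low level of miR-211-5p with LZ serum. In the 14 female libraries r was 0.57. The neighbours were the 5 nearest of 152 entries for miR-204-5p and of 153 for miR-211-5p. No entry was among both, as lists this short would often give whatever the members. The r of miR-204-5p with miR-211-5p was 0.43 over 23 libraries and 0.60 over the 21 without ND-MDSC.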

How the data were processed

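Small RNA of 23 MDSC cultures was sequenced by Norgen Biotek, and the counts are in 3 tables, each called a run here. The authors had reads assigned to the miRs of miRBase 18.0, and they deposited raw read counts for 792 entries in each table, of which 152 were at 0 in every library. The aligner and the treatment of reads that match several miRs are not given in the sources used here. Samples were grouped by kind of MDSC and agent from the labels, and by run from the count table that held them.

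Counts were divided by the column total and multiplied by 1000000. Python 3.11.15 with scipy 1.17.1 gave exact Poisson intervals for levels, Clopper-Pearson intervals for ratios of 2 counts and Wilson intervals for shares, all at 95%. A count of 0 was set at a floor of 3 reads per library. In 24 pairs an entry counted as past 2-fold at a ratio of 2 or above, or 0.5 or below, among entries that averaged 100 reads or more over the pair. An average of 10 or more was used where the members fell below 100. The 2 cyclodextrin libraries of ZF4-SC were summed. Alternatives were edgeR 4.0.16 TMM sizes, DESeq2 1.42.0 size factors (R 4.3.3), totals without the 3 most abundant entries, and the untreated ZF4-SC library of the other run. The calls, list counts and medians of all entries under these scalings were added after seeing the data. The scripts for ratios were tested on simulated data.

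Named were the 4 entries, the 5 most alike each 5p arm, miRs with the same seed, and the highest and lowest of 2 lists, which were written from general knowledge. miR-378-3p of the adipogenesis list was matched to the entry miR-378a-3p, which had 0 reads. Members and lists were chosen with earlier results of these data known. With 1 library for most conditions, no test was made. RefSeq sequences matched all 4 entries.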

Additional observations from a re-analysis of the deposited data

Results flagged for a closer look

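With OZ serum the ratios of miR-204-5p to no addition lay on opposite sides of 1 in male and female cells. They were 0.208 in ND-MDSC and 0.153 in ED-MDSC, against 2.14 in ZF4-SC and 2.42 in ZL4-SC. The female ratios rest on 19 and 7 reads in ZF4-SC and on 7 and 3 in ZL4-SC, their intervals by column totals include 1, and the difference was not tested. With the untreated ZF4-SC library of the lipid run the ZF4-SC ratio was 0.350, below 1. With LZ serum the ratios were 0.0230 in ED-MDSC and 1.70 in ZF4-SC, where the interval includes 1. The latter was 0.278 with the untreated library of the lipid run. ZL4-SC had 2 reads with LZ serum and 3 without addition and have no ratio, and ND-MDSC had no library with LZ serum. The same comparison of the sexes could therefore not be made for all cells with LZ serum.

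Albumin against no addition gave a ratio of 1.41 for miR-204-5p in ED-MDSC, whereas in ZF4-SC the level with albumin was at least 10.5-fold lower, on 0 and 29 reads. With the untreated ZF4-SC library of the serum run that bound was 1.72-fold. This difference was not tested either.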

How the results depend on the processing

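Of 129 alternative values of the 39 ratios, 119 stayed within the counting interval of the value by column totals, though some crossed 2-fold. For miR-204-5p with OZ serum in ND-MDSC the ratio was 0.241 with TMM sizes and 0.242 with DESeq2 size factors. In ND-MDSC against ED-MDSC it was 32.1 with DESeq2 size factors. For miR-211-5p in ZL4-SC against ND-MDSC it was 1.88 without the 3 most abundant entries. With the untreated ZF4-SC library of the other run, miR-204-5p turned to 0.350 for OZ serum and 0.278 for LZ serum, to 16.9 against ZL4-SC, to 0.0246 against ND-MDSC and to 4.16 for cyclodextrin, and the bound for albumin became 0.582. Leaving out either cyclodextrin library of ZF4-SC, with 0 reads set at 3, gave 0.566 to 0.794 for cyclodextrin, 1.91 to 2.69 for cholesterol at 50 mg/dl and 0.806 to 1.13 at 100 mg/dl.

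The share of entries past 2-fold depended on the minimum. At an average of 10 reads or more it was 22.1% for OZ serum in ND-MDSC, 19.2% for OZ against LZ serum in ED-MDSC, 33.3% for OZ serum in ZF4-SC, 20.5% for albumin in ZF4-SC and 30.0% for cholesterol at 50 mg/dl. With any read and 0.5 reads added it was 38.6, 37.0, 48.6, 40.3 and 48.0% in the same pairs. It was then 59.7% for OZ serum and 60.7% for LZ serum in ED-MDSC, 51.9% for LD-MDSC and 53.3% for ND-MDSC against ED-MDSC, and 59.0% and 57.0% for ZF4-SC against ZL4-SC and ND-MDSC.

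Over the 14 female libraries alone r with miR-204-5p was 0.34 for miR-146b-5p and -0.29 for miR-100-5p, and r with miR-211-5p was 0.57 for miR-101b-3p. No paired analysis was made, and no result comes from a test. The labels give no replicate numbers, and those used here only name libraries in accession order. OZ and LZ serum were both given to ED-MDSC, ZF4-SC and ZL4-SC. A pairing by kind of cells was not tested, because the members were chosen with their levels known. With 1 library a condition, counting intervals understate the spread, as the 6.12-fold difference between untreated ZF4-SC libraries shows.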
